A study of Mus musculus with 6 samples.

Results

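This section describes 10 genes of adipocyte (fat cell) fate in mouse embryonic fibroblasts (MEFs, connective-tissue cells grown out of embryos) labelled WT or Fbxw7 KO. The genes were picked by name: the C/EBP transcription factor genes Cebpa, Cebpb, Cebpd and Cebpg, the PPAR nuclear receptor genes Pparg, Ppara and Ppard, the brown fat regulator gene Prdm16, and the fat cell marker genes Fabp4 and Plin4. Each had 1 row among the 52006 named loci of the deposited tables, and all 10 passed the filter on low counts. The names were listed with earlier results of the same comparison known, the low Prdm16 level among them, so the genotype differences of the 10 are given as a description with no p-value. RNA was sequenced from 3 WT libraries and 3 libraries of genotype Fbxw7 KO, both grown in DMEM with 15% FBS and 1% NEAA and not labelled with any fat-inducing treatment. Nothing in the labels gave the allele, the deleted exons, the embryos or whether libraries of a genotype were separate cultures, so errors and p-values measure the spread between these libraries, which may be technical.

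A fibroblast becomes a fat cell through a relay of transcription factors. C/EBPβ and C/EBPδ act early and switch on the genes of PPARγ and C/EBPα, which then maintain each other and turn on lipid-handling genes such as Fabp4 and Plin4. PRDM16 works with C/EBPβ and PPARγ to direct precursors towards brown or beige fat, whose cells burn fuel for heat. FBXW7 is the substrate-binding part of an SCF ubiquitin ligase, and C/EBP proteins are among those it marks for degradation, a step that acts on protein and is not read by RNA sequencing.

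The libraries held 55720129 to 64198455 estimated fragments. Library 3 of each genotype stood apart. The median chi-square of a pair over sampling noise, a squared measure, was 7.43 for WT replicates 1 and 2. It was 6.56 for KO replicates 1 and 2, and 26.8 to 42.5 for pairs with replicate 3. The median absolute log2 CPM difference was 0.0973 for WT replicates 1 and 2 and 0.0841 for KO replicates 1 and 2. For pairs with replicate 3 it was 0.176 to 0.227. Fbxw7 transcripts were present in both genotypes, at 29.3 ± 0.869 CPM in WT and 26.4 ± 1.97 CPM in KO (CPM, fragments scaled to a common library size; SD, n = 3 each; log2 fold change -0.16 ± 0.10 SE; edgeR quasi-likelihood, Benjamini-Hochberg adjusted p = 0.332). That value sums the whole gene and does not check the labels. Xist, the RNA that coats an inactive X chromosome, had a mean of 1.47 ± 1.09 CPM for WT and of 911 ± 126 CPM for KO, in a row shared with Gm27733 and Gm27927. This difference ran through the libraries behind every result here, and its part in them was not tested.

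Fibroblast markers were abundant. Of the 10 listed markers, 2 lay in loci shared with other genes and were left out. The other 8 summed to 29100 to 38400 CPM in WT and to 29100 to 35400 CPM in KO. Markers of mature fat cells (Adipoq, Plin1, Cidec, Lep, Retn and Cfd) were at or near 0: their sum was at most 0.0168 CPM in any WT library and at most 0.0683 CPM in any KO library, and Cidec and Lep had no fragment in any library.

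Among all 16787 tested loci, 2705 (16.1%) were past the threshold of the edgeR fit, an adjusted p of 0.05, with 8.03% of loci above WT and 8.08% below it. Leaving out WT replicate 1 gave 1302 loci and leaving out WT replicate 2 gave 1271, and there were 1169 without KO replicate 1 and 1462 without KO replicate 2. Of the 10 genes 7 were past that threshold, with Cebpa, Cebpd and Cebpg higher and Pparg, Prdm16, Fabp4 and Plin4 lower in KO. The same 7 had KO and WT libraries that did not overlap in CPM, which was so for 37.7% of all tested loci. The median log2 fold change was 0.02 over the 10 genes and 0.0075 over all tested loci, and the median size of the change, ignoring its sign, was 1.17 against 0.26. Nothing is read from these counts, since the names were listed with this comparison known. Of the 10, the number past the threshold was 4 without WT replicate 2, 4 without KO replicate 1, 4 without KO replicate 2 and 8 without KO replicate 3. In the tables the rows of 7 genes lay in stretches assembled together with other loci, among them Gm45091 for Cebpa, Tmem189 and Ube2v1 for Cebpb, Spidr for Cebpd, Gm45095 for Cebpg, Gm44079 for Pparg, B230104I21Rik for Prdm16 and Hdgfl2 for Plin4. How fragments were divided there, and whether strand was used, was not tested.

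**Figure D1:**
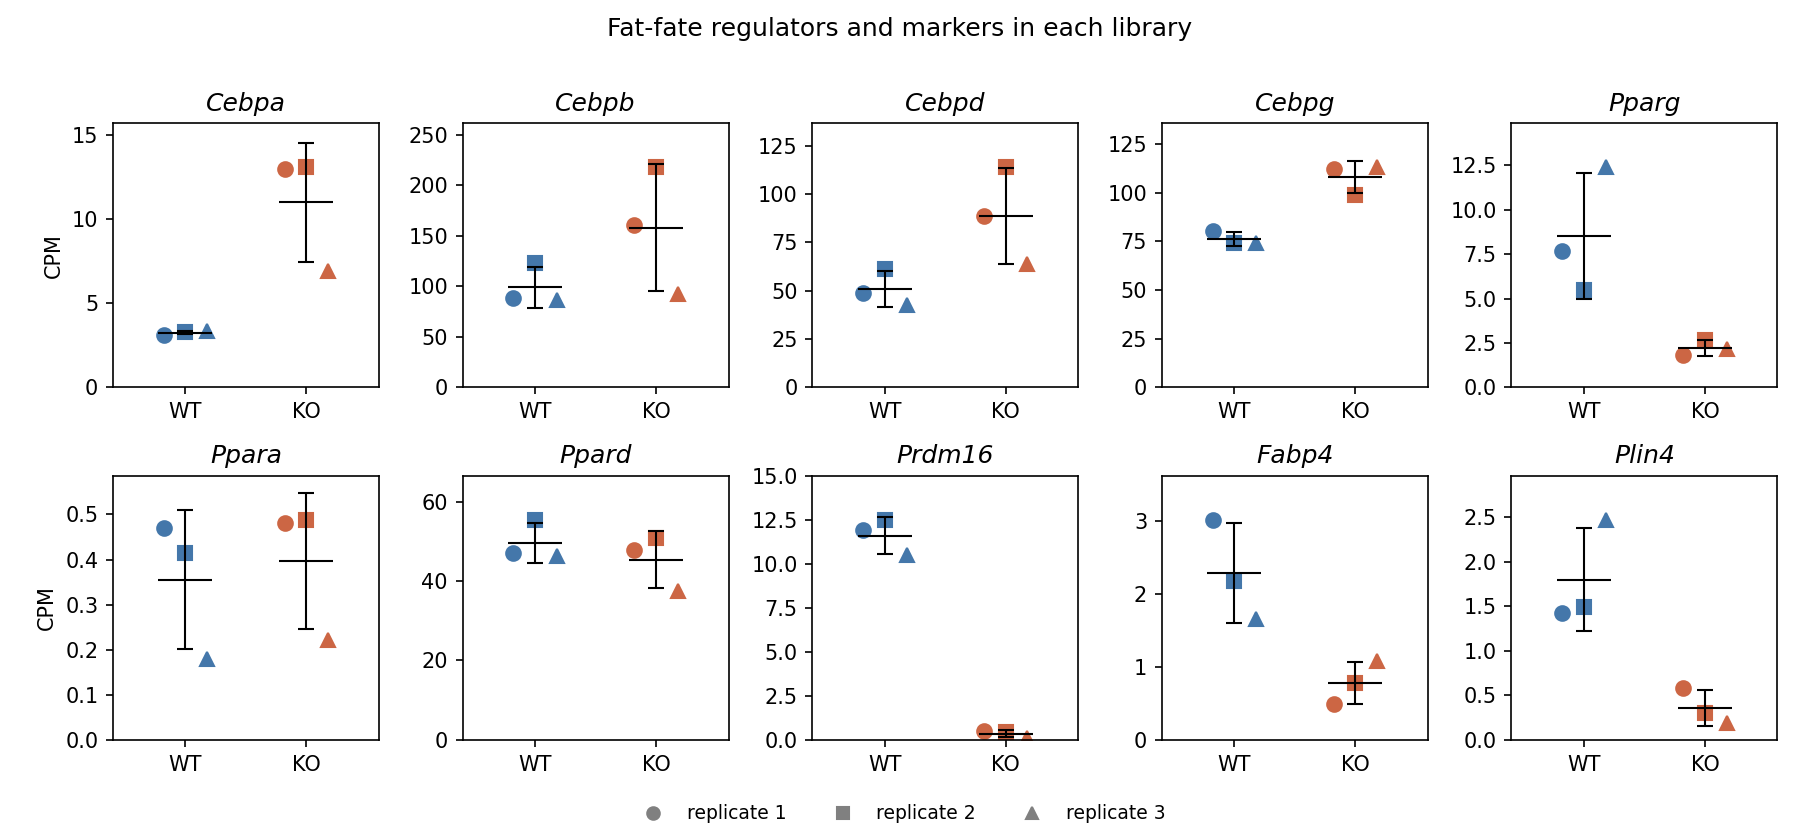
CPM (vertical axes, linear, from 0) of each of the 10 genes in the 3 WT and 3 KO libraries, with points shaped by replicate number, and the mean with its SD as a bar and whiskers. The KO points of Prdm16 lie at 0.119 to 0.532 CPM against 10.5 to 12.5 CPM in WT, and KO replicate 3 is the lowest KO library for Cebpa, Cebpb and Cebpd.

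The promoters of Cebpa, Pparg and Prdm16, the transcription factor genes among the 10 with the largest log2 fold changes, are shown first, as background to the values. RefSeq start sites on GRCm38.p6 (the assembly of mm10) were found for 8 of the 10 genes, with 3 starts for Pparg. There was no entry for Cebpd or Fabp4. Each sequence below is the 250 bases before a start site, 5′ to 3′ on the strand of the gene, and capitals mark matches, on either strand, to the motifs listed after them.
Cebpa, chr7:35119043-35119292, plus strand: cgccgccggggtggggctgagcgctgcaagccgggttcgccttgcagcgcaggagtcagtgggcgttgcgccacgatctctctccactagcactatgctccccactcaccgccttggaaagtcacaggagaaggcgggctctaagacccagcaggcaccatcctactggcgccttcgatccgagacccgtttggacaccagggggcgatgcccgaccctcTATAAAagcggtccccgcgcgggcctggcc
Pparg, upstream start, chr6:115360894-115361143, plus strand: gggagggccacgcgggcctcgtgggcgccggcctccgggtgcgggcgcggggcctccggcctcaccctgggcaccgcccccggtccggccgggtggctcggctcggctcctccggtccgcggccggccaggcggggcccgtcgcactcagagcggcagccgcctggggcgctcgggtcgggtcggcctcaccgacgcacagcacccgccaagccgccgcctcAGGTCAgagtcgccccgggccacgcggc
Pparg, downstream start, chr6:115421816-115422065, plus strand: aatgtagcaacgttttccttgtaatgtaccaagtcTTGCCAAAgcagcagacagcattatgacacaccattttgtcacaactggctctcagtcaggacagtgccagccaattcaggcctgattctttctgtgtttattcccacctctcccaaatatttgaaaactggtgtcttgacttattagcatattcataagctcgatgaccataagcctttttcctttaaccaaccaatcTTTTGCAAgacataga
Prdm16, chr4:154636874-154637123, minus strand: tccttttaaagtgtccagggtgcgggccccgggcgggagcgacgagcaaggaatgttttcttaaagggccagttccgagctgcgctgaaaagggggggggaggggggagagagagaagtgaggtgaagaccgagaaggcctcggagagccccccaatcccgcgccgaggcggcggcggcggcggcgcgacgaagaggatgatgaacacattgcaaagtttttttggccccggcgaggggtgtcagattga
The motifs were TTGCNNAA (a C/EBP site), TGATGNAA (a composite site of C/EBP and ATF factors), AGGTCA (the half-site of nuclear receptors), the DR1 site of PPAR and RXR (2 half-sites in the same direction with 1 base between them, so that each match also holds the half-site), TGACGTCA (the cyclic AMP response element) and TATAAA (the TATA box). The first and second motif can share bases where they overlap.

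The downstream start of Pparg, known as that of the fat-enriched isoform PPARγ2, held both C/EBP matches found among the 10 promoter windows of these genes. They were TTGCCAAA from -215 to -208 and TTTTGCAA from -16 to -9, the latter a match on the other strand, counted back from the base before the start. Among all 32851 promoter windows of this length 9.56% held TTGCNNAA. The upstream start of Pparg held 1 AGGTCA, from -28 to -23, a motif of 14.0% of windows. A start between them, not printed here, held AGGTCA from -9 to -4 and a TATA match on the other strand from -29 to -24. Cebpa held TATAAA from -30 to -25, which 12.4% of windows did. The window of Prdm16 held none of the 6 motifs. No window of these genes held TGATGNAA, the DR1 site or TGACGTCA, which were found in 3.45%, 0.0335% and 1.55% of all windows. The windows differed in base composition, with 40.8% GC at the downstream Pparg start, 82.4% at the upstream one, 66.4% at Cebpa and 62.4% at Prdm16. The counts sum all starts of a gene, so which Pparg start was read was not tested, and a match of letters does not show that a factor binds. Sites that depart from the letters of the 6 motifs were not searched for, so a window without a match may still hold such sites.

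Cebpa (chromosome 7, 35119293 to 35121928, plus strand, protein coding, GENCODE M21 on GRCm38) encodes C/EBPα, which keeps fat cells differentiated and stops their division. The WT libraries, in the order of replicates 1, 2 and 3, gave 3.14, 3.27 and 3.37 CPM, and the KO libraries gave 13.0, 13.1 and 6.93 CPM. The WT libraries were tightly grouped and all 3 KO libraries lay above them, with KO replicate 3 the lowest of them. The mean went from 3.26 ± 0.113 to 11.0 ± 3.54 CPM (SD, n = 3 each), a 3.38-fold higher level (log2 fold change 1.76 ± 0.25 SE). Alternatives put the log2 fold change between 1.19 and 2.02. In bulk RNA more expressing cells and more RNA per cell cannot be told apart, here and for every gene below.

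Hepatocytes also express Cebpa. Of the 6 hepatocyte markers Alb (albumin), chosen after its values were seen, rose from 0.256 ± 0.189 to 9.83 ± 4.92 CPM (edgeR adjusted p = 0.00185), while Ttr had no fragment in any library and Hnf4a, the defining regulator, reached 0.0114 CPM on average in KO. The sum of the 6 was 0.294 to 0.521 CPM in WT and 6.51 to 15.6 CPM in KO, which in KO was nearly all Alb.

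Cebpb (chromosome 2, 167688915 to 167690418, plus strand) encodes C/EBPβ, an early inducer of fat cell genes and of inflammatory genes. Its CPM in replicates 1, 2 and 3 was 88.1, 123 and 86.1 in WT and 161, 218 and 92.8 in KO. The groups overlapped, because KO replicate 3 lay below WT replicate 2. The mean was 98.9 ± 20.6 CPM in WT and 158 ± 62.9 CPM in KO (SD, n = 3 each), a log2 fold change of 0.67 ± 0.29 (SE) that was not past the threshold. Without KO replicate 3 it was 0.94 ± 0.20 and past it.

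Cebpd (chromosome 16, 15887286 to 15891031, plus strand) encodes C/EBPδ, the partner of C/EBPβ in the early phase. WT replicates 1, 2 and 3 held 48.8, 61.2 and 42.6 CPM and KO replicates held 88.5, 114 and 64.0 CPM. All KO libraries were above all WT libraries, but the margin between KO replicate 3 and WT replicate 2 was small. The means were 50.9 ± 9.47 and 88.8 ± 25.0 CPM (log2 fold change 0.80 ± 0.22 SE). This was the least secure of the 7 differences: leaving out any library other than KO replicate 3 left it short of the threshold, with log2 fold changes of 0.58 to 0.96. In FPKM, which divides fragments by transcript length as well as by depth, the groups overlapped, since KO replicate 3 read 22.6 and WT replicate 2 read 23.4.

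In CPM, Cebpb and Cebpd had the same order of libraries within each genotype: replicate 2 was the highest, replicate 1 came next and replicate 3 was the lowest. In FPKM that order did not hold for Cebpb in WT, where replicate 1 read 63.3 and replicate 3 read 64.0.

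Cebpg (chromosome 7, 35046422 to 35056573, minus strand, 62719 bp from Cebpa) encodes C/EBPγ, which lacks a strong activation domain and pairs with other bZIP factors, ATF4 among them. Its row also held the predicted gene Gm44836, so its reads may be shared. For replicates 1, 2 and 3 the row gave 80.2, 73.9 and 74.0 CPM (WT) against 112, 98.8 and 113 CPM (KO). Both groups were narrow and did not overlap, and here KO replicate 3 was not low. The means were 76.0 ± 3.6 and 108 ± 8.01 CPM (log2 fold change 0.51 ± 0.09 SE). Without WT replicate 2 or KO replicate 1 the log2 fold change was 0.48 each time and not past the threshold.

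Per transcript length Cebpb was the main C/EBP transcript in all 6 libraries, with 57.8% to 64.3% of the summed FPKM of the 4 genes in WT and 50.5% to 65.8% in KO. Cebpa was a minor share throughout, 0.998% to 1.24% in WT and 2.19% to 2.81% in KO. The sum was 107 to 140 FPKM in WT and 128 to 239 FPKM in KO, and KO replicate 3 lay within the range of WT.

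**Figure D2:**
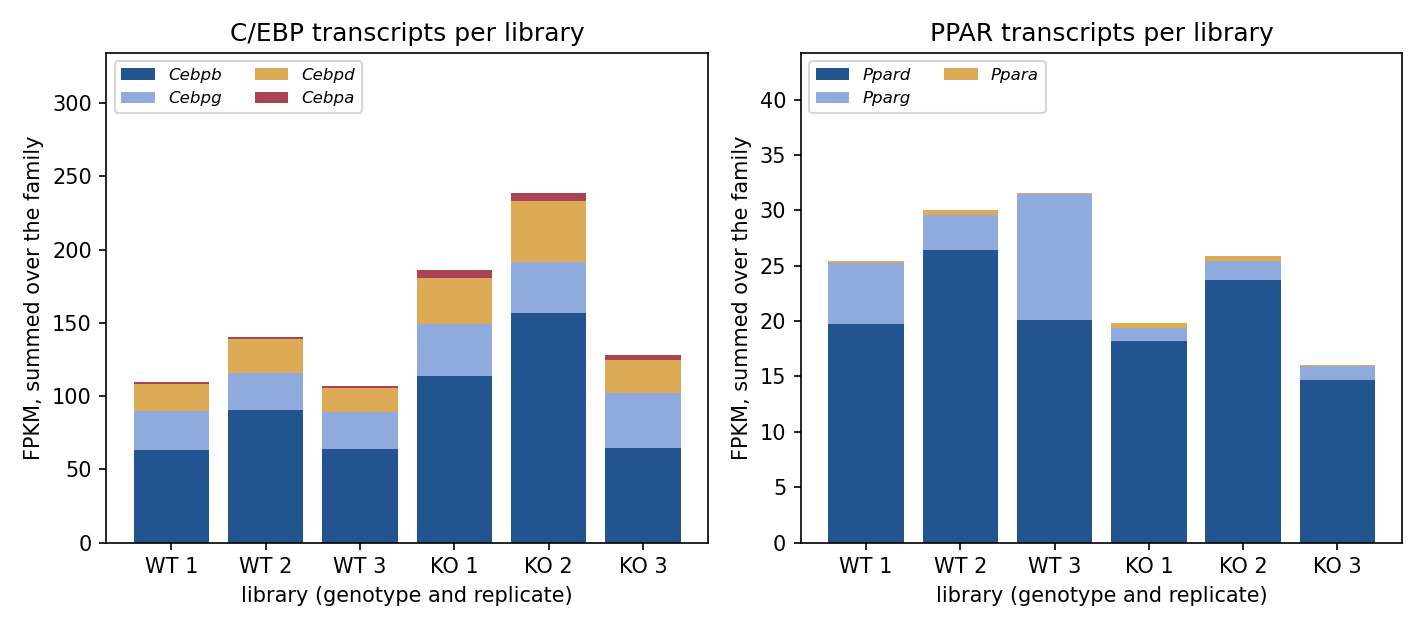
Stacked FPKM (vertical axes, linear) of the 4 C/EBP genes on the left and the 3 PPAR genes on the right, 1 bar for each library. Cebpb and Ppard are the largest parts in every bar, and the Pparg part is 10.5% to 36.1% of the PPAR sum in WT and 5.8% to 7.68% in KO. The bars use FPKM estimates, whose deposited lower bound for Pparg is 0 in WT replicates 1 and 3 and in KO replicate 1.

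Pparg (chromosome 6, 115360951 to 115490399, plus strand) encodes PPARγ, the nuclear receptor without which fat cells do not form. Its level was 7.66, 5.49 and 12.4 CPM for WT replicates 1, 2 and 3, against 1.82, 2.69 and 2.15 CPM for the KO replicates. Every KO library lay below every WT library, and WT varied more than KO, with WT replicate 3 highest. The mean went from 8.52 ± 3.53 to 2.22 ± 0.441 CPM (SD, n = 3 each), 26.1% of WT (log2 fold change -1.94 ± 0.32 SE). The direction held in all 19 alternatives, at -2.18 to -1.54. Cebpa and Pparg, which sustain each other in fat cells, thus lay on opposite sides of 0.

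Ppard (chromosome 17, 28232700 to 28301474, plus strand) encodes PPARδ, a widely expressed receptor that promotes fatty acid burning. The CPM was 47.1, 55.4 and 46.3 in WT and 47.9, 50.9 and 37.4 in KO for replicates 1, 2 and 3. The groups overlapped, with a log2 fold change of -0.13 ± 0.14 (SE). Ppara (chromosome 15, 85734983 to 85802819, plus strand) encodes PPARα, the receptor of fasting liver and of brown fat. It was near the lower limit of the data, with 28, 25 and 11 estimated fragments in WT and 28, 29 and 13 in KO. Its groups overlapped as well (0.355 ± 0.154 and 0.397 ± 0.151 CPM), and the sign of its log2 fold change of 0.16 ± 0.46 (SE) turned to -0.16 without WT replicate 3 and to -0.02 without KO replicate 2. The row for Ppard made up 63.6% to 88.0% of the PPAR sum in WT and 91.5% to 91.9% in KO. The PPAR sum itself was 25.4 to 31.6 FPKM in WT and 16.0 to 25.9 FPKM in KO.

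Prdm16 (chromosome 4, 154316125 to 154636873, minus strand) encodes a zinc-finger regulator that holds cells to the brown fat programme and represses white fat and muscle genes. WT replicates 1, 2 and 3 read 11.9, 12.5 and 10.5 CPM from 710, 753 and 640 fragments. KO replicates read 0.532, 0.437 and 0.119 CPM from 31, 26 and 7 fragments. WT was uniform and KO was near absence in all 3 libraries, at 3.12% of the WT mean (11.6 ± 1.05 and 0.363 ± 0.216 CPM; log2 fold change -4.99 ± 0.41 SE). This was the 17th lowest log2 fold change among the 16787 loci. Alternatives gave -5.37 to -2.46, the smallest size coming from log2(FPKM + 1), a scale on which low values are compressed. In KO the order of libraries by FPKM (0.121, 0.0735 and 0.158) differed from that by CPM, so the order among the KO libraries rests on the unit.

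Fabp4 (chromosome 3, 10204088 to 10208576, minus strand) encodes a fatty acid carrier of fat cells, macrophages and capillary endothelium. Replicates 1, 2 and 3 gave 3.01, 2.17 and 1.65 CPM for WT, against 0.497, 0.774 and 1.08 CPM for KO. The groups did not overlap, but WT replicate 3 and KO replicate 3 were close. The means were 2.28 ± 0.685 and 0.782 ± 0.289 CPM (log2 fold change -1.54 ± 0.35 SE). It was no longer past the threshold without WT replicate 1 or 2 or KO replicate 1 or 2 (-1.57 to -1.29), nor with the replicate number as a block (-1.54 ± 0.41).

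Plin4 (chromosome 17, 56100591 to 56109803, minus strand) encodes a coat protein of small lipid droplets. Its CPM was 1.43, 1.49 and 2.47 in WT and 0.583, 0.303 and 0.188 in KO for replicates 1, 2 and 3. All KO libraries lay below all WT libraries, at 11 to 34 fragments against 85 to 151. The means were 1.80 ± 0.583 and 0.358 ± 0.203 CPM (log2 fold change -2.32 ± 0.43 SE), and without KO replicate 2 the value of -2.22 ± 0.53 was not past the threshold. On the log2(FPKM + 1) scale without a filter the difference shrank to -0.30.

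Endothelial cells and macrophages also express Fabp4. Of the endothelial markers the receptor genes Kdr and Tek fell, from 5.59 ± 2.26 to 0.703 ± 0.261 CPM and from 1.87 ± 0.79 to 0.34 ± 0.206 CPM (edgeR adjusted p = 0.00274 and 0.0227). Cldn5 and Tie1 had no fragment in any library, and Pecam1 and Cdh5 were at most 0.106 CPM on average. The list of 8, without the 1 in a shared locus, summed to 6.46 to 9.27 CPM in WT and 0.614 to 1.42 CPM in KO. Of the 10 macrophage markers, 1 of them in a shared locus, Lyz2 fell from 17.7 ± 1.6 to 11.5 ± 1.13 CPM and Cd68 from 1.19 ± 0.358 to 0.448 ± 0.14 CPM (edgeR adjusted p = 0.0171 and 0.0299). Csf1r, the other macrophage marker tested, read 0.585 ± 0.05 CPM in WT and 0.651 ± 0.331 CPM in KO and did not pass (edgeR adjusted p = 0.838). Below the count filter, Ptprc read 0.0276 and 0.00569 CPM and Fcer1g read 0.0276 and 0.051 CPM on average in WT and KO. Without 1 library the calls of Tek (4 of 6 libraries), Lyz2 (3 of 6) and Cd68 (6 of 6) were lost, with adjusted p of 0.0511 to 0.0983 in edgeR. The libraries were WT replicates 1 and 2 and KO replicate 1 for Lyz2, those and KO replicate 2 for Tek. Adgre1, Tyrobp, C1qa and C1qb had no fragment in any library. Without the gene in a shared locus the list summed to 18.6 to 21.2 CPM in WT and 10.9 to 13.6 CPM in KO. These markers were chosen after their values were seen. Their part in the Fabp4 and Pparg differences was not tested.

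**Figure D3:**
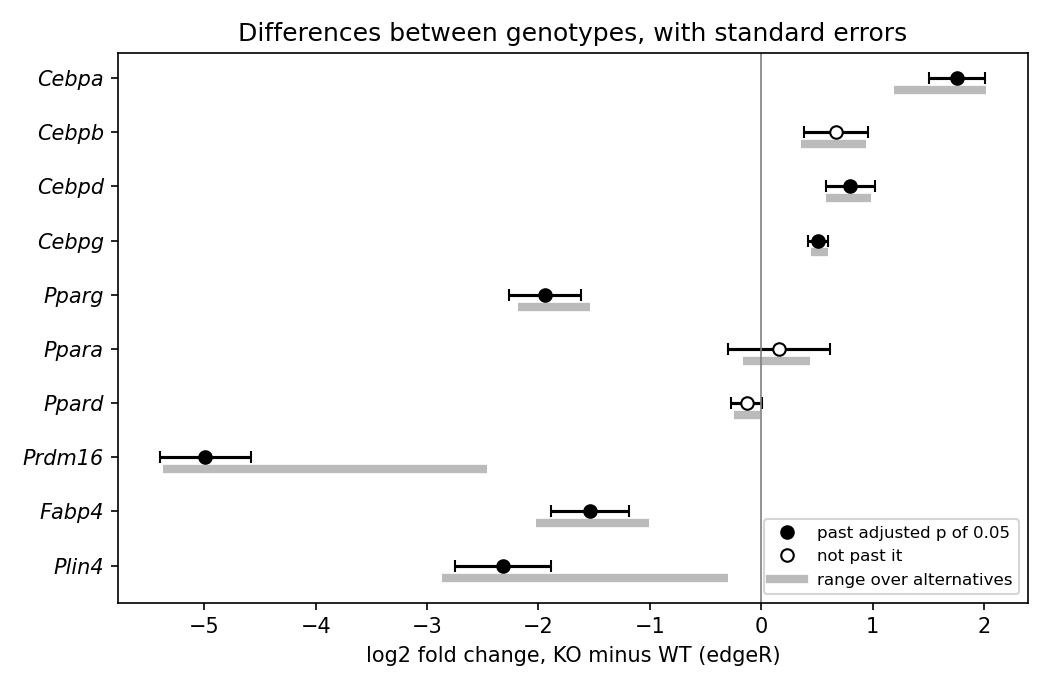
Log2 fold change of KO minus WT (horizontal axis) for each of the 10 genes, with whiskers of 1 SE; filled points are past an adjusted p of 0.05 over all tested loci, and grey bars span the alternative settings. The grey bar crosses 0 for Ppara alone, from -0.16 to 0.44.

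Compared per transcript length, the order of the 10 genes differed between the genotypes. In WT the mean FPKM was 72.5 ± 15.3 for Cebpb, 25.7 ± 0.875 for Cebpg, 22.1 ± 3.73 for Ppard and 19.4 ± 3.6 for Cebpd (SD, n = 3). Cebpg and Ppard overlapped, as did Ppard and Cebpd. Next in WT came Pparg at 6.70 ± 4.24, Prdm16 at 5.14 ± 0.437, Fabp4 at 3.11 ± 0.805 and Cebpa at 1.36 ± 0.0403 FPKM. Pparg overlapped with Prdm16 and with Fabp4, and Cebpa lay below all 3 in every library. Plin4 at 0.300 ± 0.101 and Ppara at 0.234 ± 0.195 FPKM overlapped at the bottom.

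In KO the upper end was alike, with Cebpb at 112 ± 46.3, Cebpg at 35.7 ± 1.8, Cebpd at 32.2 ± 9.76 and Ppard at 18.9 ± 4.56 FPKM, of which Cebpg overlapped with Cebpd and Cebpd with Ppard. Cebpa came next, at 4.47 ± 1.3 FPKM, above Pparg at 1.37 ± 0.299 in each library. In WT it had been the other way round in each library. These orders, in both genotypes, rest on the FPKM estimates and not on their deposited bounds. The bounds for Pparg were 0 and 19.11 in WT replicate 1 and 0 and 41.24 in WT replicate 3. The bounds of Cebpa and Pparg overlapped in every library other than KO replicate 1. Fabp4 at 1.04 ± 0.354 overlapped with Pparg, and Ppara at 0.351 ± 0.231, Prdm16 at 0.118 ± 0.0425 and Plin4 at 0.0575 ± 0.0321 FPKM formed the lower end. Ppara lay below Fabp4 in each library, while Ppara overlapped with Prdm16 and Prdm16 with Plin4.

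The genes whose pattern over the 6 libraries was most like that of a regulator were sought among 10231 loci with at least 5 CPM on average, as Pearson r of log2(CPM + 0.5). All points of such a correlation share the genotype split. For Cebpa the closest were Inhbb (r = 0.998), an activin subunit gene, at 191 ± 9.01 CPM in WT and 425 ± 87.2 CPM in KO, then Myrf (r = 0.998) and Sp9 (r = 0.997). For Cebpb they were Men1, Gtpbp6 and Tsku (r = 0.990, 0.990 and 0.989). For Pparg they were Mcl1 (r = 0.998), a survival gene at 197 ± 10.8 CPM in WT and 165 ± 2.86 CPM in KO, the predicted gene Gm4875 (r = 0.997) and Nqo1 (r = 0.991), a quinone reductase gene at 14.1 ± 3.95 and 4.61 ± 0.415 CPM. For Prdm16 they were Nhlrc2, Lgr5 and Sptbn1 (r = 0.999, 0.999 and 0.998), with Sptbn1, a spectrin gene, at 2960 ± 35.9 CPM in WT and 1290 ± 154 CPM in KO. An r over 0.95 was reached by 297 loci for Cebpa, 74 for Cebpb, 181 for Pparg and 386 for Prdm16.

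Other factors that promote fat cell formation, were listed as 29 genes. Of 25 tested, 2 rose and 2 fell, with a median log2 fold change of -0.11, where 16.1% of all loci passed. Without replicate 3 of both genotypes 15 of the 25 passed, 4 higher and 11 lower, in a fit where 6993 of 16926 loci passed. Ebf3, an early B-cell factor gene, rose from 3.16 ± 1.16 to 13.7 ± 1.84 CPM (log2 fold change 2.11 ± 0.28 SE; edgeR adjusted p = 0.00299), and the coactivator gene Ppargc1b from 1.36 ± 0.153 to 2.70 ± 0.0588 CPM (edgeR adjusted p = 0.0115). Klf5, which acts between C/EBPβ and PPARγ in the relay, fell from 6.82 ± 0.183 to 2.55 ± 0.317 CPM (-1.42 ± 0.16; edgeR adjusted p = 0.00151), and Stat5b fell from 43.6 ± 1.37 to 33.2 ± 3.82 CPM (edgeR adjusted p = 0.0474). The PPAR partner genes Rxra (157 ± 18.2 and 133 ± 16.5 CPM) and Rxrb (37.6 ± 3.29 and 45.9 ± 5.97 CPM), chosen after their values were seen, did not pass. Leaving out a library lowered the count to 2 without WT replicate 2 or KO replicate 1 and raised it to 6 without KO replicate 3. Ppargc1b was lost without WT replicate 2 or KO replicate 1 (adjusted p of 0.0561 to 0.0568 in edgeR), and Stat5b without any 1 of the 6 libraries (adjusted p of 0.0502 to 0.141 in edgeR). The Stat5b call was also lost with the replicate block, upper-quartile factors, library size only or no count filter (adjusted p of 0.0736, 0.065, 0.0779 and 0.0588 in edgeR).

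**Figure D4:**
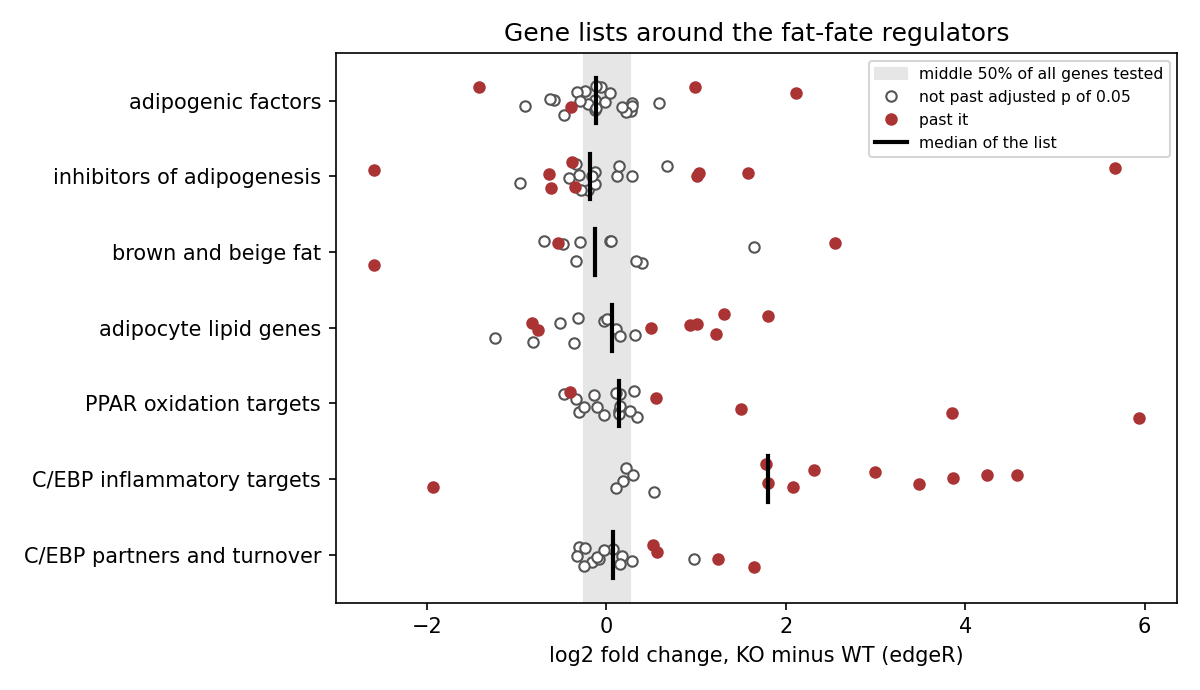
Log2 fold change of KO minus WT (horizontal axis) of the tested genes of 7 lists, 1 row for each list, with red points past an adjusted p of 0.05, black bars at the list medians and a grey band over the middle 50% of all 16787 loci, from -0.25 to 0.27. The list medians run from -0.18 for the inhibitors of adipogenesis to 1.80 for the C/EBP inflammatory list, some of whose rises were known when it was written.

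Genes that hold back fat cell formation moved in both directions in the main fit. Of 22 tested in a list of 26, 4 rose and 5 fell, where 16.1% of all loci passed. The median log2 fold change was -0.18. Wnt5a, a Wnt ligand gene, rose from 267 ± 37.0 to 546 ± 50.7 CPM (1.03 ± 0.13; edgeR adjusted p = 0.00271), and Wnt10b, the Wnt ligand best known for keeping precursors undifferentiated, from 0.0608 ± 0.00958 to 3.20 ± 1.54 CPM (edgeR adjusted p = 0.00075). Wnt10b had so few fragments in WT that no fold is given. Trib3, a pseudokinase gene, rose from 43.2 ± 7.36 to 87.1 ± 8.52 CPM (1.01 ± 0.14; edgeR adjusted p = 0.00379). Dlk1, the classic precursor marker that is lost when fat cells form, fell from 232 ± 24.6 to 38.5 ± 20.5 CPM (-2.59 ± 0.42; edgeR adjusted p = 0.00638), and did not pass without the count filter (edgeR adjusted p = 0.0706). The count of 9 was 4, with 3 higher and 1 lower, without WT replicate 1, WT replicate 2 or KO replicate 1. Without KO replicate 2 it was 5, with 3 higher and 2 lower. With replicates 1 and 2 summed, 3 were higher and 0 lower (3 and 5 at an unadjusted p under 0.05 in edgeR). In that fit 478 of 17853 loci passed at the adjusted threshold.

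Of the preadipocyte marker list, 9 of 10 were tested, 1 rose and 4 fell, where 16.1% of all loci passed. Besides Dlk1 those that fell were Cd34 (37.0 ± 15.5 to 12.9 ± 1.38 CPM), Cd24a (53.8 ± 28.4 to 14.9 ± 8.29 CPM) and Dpp4 (0.536 ± 0.111 to 0.0681 ± 0.0515 CPM). F3, a coagulation receptor gene, rose by 0.67 ± 0.19 on the log2 scale. These too were chosen after their values were seen, and the edgeR adjusted p was 0.00966, 0.0493, 0.00981 and 0.0493 for Cd34, Cd24a, Dpp4 and F3. The Cd24a call was lost without any 1 library and the F3 call without any 1 other than KO replicate 3 (adjusted p of 0.0606 to 0.169 in edgeR), and neither passed with the replicate block (adjusted p of 0.126 and 0.0944 in edgeR). Without Pdgfra, which lay in a shared locus, the list summed to 954 to 1160 CPM in WT and to 620 to 1140 CPM in KO.

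Genes of brown and beige fat were for the most part barely expressed in either genotype. In a list of 24, 12 were tested and 10 fell below the count filter, among them the heat-producing uncoupling protein gene Ucp1 (0.0111 CPM in WT and 0.0341 CPM in KO) and Cidea (0.0109 CPM in WT and listed at 0 in KO). Of the 12, 1 rose and 2 fell, with a median of -0.12, where 16.1% of all loci passed. Tnfrsf9, a receptor gene used as a beige fat marker, rose from 0.248 ± 0.084 to 1.47 ± 0.172 CPM (edgeR adjusted p = 0.00197). Epsti1, a brown fat marker that is also induced by interferon, fell from 4.42 ± 0.946 to 0.732 ± 0.495 CPM (edgeR adjusted p = 0.00805), and Tbx1, a T-box gene of beige fat, fell from 17.9 ± 1.5 to 12.3 ± 0.358 CPM (edgeR adjusted p = 0.0179). Tbx1 was lost without WT replicate 2, KO replicate 1 or KO replicate 2 (adjusted p of 0.0649 to 0.0742 in edgeR). Mecom, the closest relative of Prdm16, chosen after its values were seen, read 8.74 ± 3.83 and 5.42 ± 4.29 CPM and did not pass, and the PRDM16 partner gene Ctbp1, chosen in the same way, read 215 ± 11.0 and 222 ± 29.5 CPM.

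The lipid genes that PPARγ and C/EBPα switch on in fat cells numbered 30. Of these 18 were tested, 6 rose and 2 fell (median 0.06), where 16.1% of all loci passed. That balance was not stable: 5 were higher and 4 lower in DESeq2, 4 and 3 with the replicate block, and 4 and 4 without WT replicate 3. In these fits 3639 of 16787, 2356 of 16787 and 3183 of 17229 loci passed. Angptl4, a secreted inhibitor of lipoprotein lipase, rose from 11.0 ± 0.734 to 38.5 ± 15.3 CPM (1.80 ± 0.29; edgeR adjusted p = 0.00653). The lipase gene Mgll rose from 3.22 ± 0.186 to 7.49 ± 1.92 CPM (edgeR adjusted p = 0.00816) and Bscl2, the seipin gene of lipid droplet assembly, from 14.8 ± 1.72 to 28.3 ± 7.78 CPM (edgeR adjusted p = 0.0242). Lpin1, a phosphatase gene of triglyceride synthesis, fell from 91.6 ± 16.3 to 54.0 ± 6.45 CPM (edgeR adjusted p = 0.0149). Among the other droplet coat genes, chosen after their values were seen, Plin2 read 133 ± 5.31 CPM in WT and 165 ± 30.8 CPM in KO and did not pass. Plin3 read 172 ± 12.7 and 134 ± 13.1 CPM, with all KO libraries below all WT libraries, and did not pass (edgeR adjusted p = 0.06). Plin1 and Plin5 fell under the count filter. The count of 8 was 3 without WT replicate 1, KO replicate 1 or KO replicate 2 and 2 without WT replicate 2. Bscl2 was lost without any 1 library other than KO replicate 3 (adjusted p of 0.0518 to 0.0913 in edgeR) and Lpin1 without WT replicate 1 or 2 (adjusted p of 0.0562 to 0.0589 in edgeR).

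A list of 26 targets of PPARα and PPARδ was made around fatty acid oxidation but was not limited to its enzymes. Of 20 tested, 4 rose and 1 fell (median 0.14), where 16.1% of all loci passed. At an unadjusted p under 0.05 in edgeR, 4 were higher and 4 lower, where 5299 of all 16787 loci passed. Ucp2, a mitochondrial carrier gene, rose from 1.23 ± 0.38 to 17.8 ± 4.7 CPM (3.85 ± 0.29; edgeR adjusted p = 0.000311). Fgf21, a fasting hormone gene, rose from 0.0389 ± 0.0346 to 2.51 ± 1.83 CPM (edgeR adjusted p = 0.00334), with too few fragments in WT for a fold. Acot1, an acyl-CoA thioesterase gene, rose from 3.68 ± 0.423 to 10.4 ± 2.47 CPM (edgeR adjusted p = 0.0038). The rate-limiting carnitine transferase gene Cpt1a, chosen after its values were seen, read 117 ± 17.3 and 146 ± 28.8 CPM and did not pass. Without WT replicate 1 or 2 or KO replicate 1 the count was 3.

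A list of 16 inflammatory and acute-phase genes was made as targets of C/EBPβ and C/EBPδ, and C/EBP sites in them were not searched for. Of 15 tested, 9 rose and 1 fell (median log2 fold change 1.80), where 16.1% of all loci passed. Rises of several of them were known when the list was written, so the list is not independent evidence of its direction. Ptx3, a secreted pattern-recognition protein gene, rose from 38.6 ± 1.78 to 191 ± 35.0 CPM (2.31 ± 0.15; edgeR adjusted p = 0.000143). The neutrophil chemokine genes Cxcl1 and Cxcl5 and the cytokine gene Il6 rose too, by 3.49 ± 0.12, 3.87 ± 0.39 and 4.58 ± 0.43 on the log2 scale (edgeR adjusted p of 9.34e-06, 0.00105 and 0.00077). The gene that fell was Il1rn, the interleukin-1 receptor antagonist, from 2.49 ± 1.31 to 0.652 ± 0.0873 CPM (edgeR adjusted p = 0.0262), chosen after its values were seen; the call was lost without any 1 library other than WT replicate 3 (adjusted p of 0.0699 to 0.095 in edgeR). Ccl2 (856 ± 148 and 923 ± 115 CPM) and C3 (79.9 ± 22.9 and 91.4 ± 28.1 CPM), chosen in the same way, did not pass.

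Among the dimer partners of C/EBP proteins and the genes that act on their turnover, 4 of 17 tested rose and 0 fell in edgeR. The median was 0.07, and 16.1% of all loci passed. Below WT, 3 had an unadjusted p under 0.05 in edgeR and 2 passed in DESeq2, which called 8 in all. Among all 16787 loci, 5299 had an unadjusted p under 0.05 in edgeR and 3639 passed in DESeq2. Atf4, the stress-response factor that pairs with C/EBPβ and C/EBPγ, rose from 307 ± 14.0 to 439 ± 6.09 CPM (0.52 ± 0.09; edgeR adjusted p = 0.00854). The bZIP repressor gene Nfil3 rose from 15.1 ± 1.34 to 35.7 ± 3.07 CPM (1.24 ± 0.12; edgeR adjusted p = 0.00077) and Hlf, a bZIP gene of the clock output, from 3.70 ± 1.77 to 11.6 ± 1.28 CPM (edgeR adjusted p = 0.021). Usp28, the deubiquitinase that opposes FBXW7, rose from 20.6 ± 1.09 to 30.6 ± 1.81 CPM (0.57 ± 0.10; edgeR adjusted p = 0.00952). Gsk3b, the kinase gene whose product phosphorylates FBXW7 substrates, read 167 ± 6.55 CPM in WT and 156 ± 14.5 CPM in KO. Cul1, the SCF scaffold gene, read 108 ± 4.59 and 113 ± 11.9 CPM. Both were chosen after their values were seen and did not pass. Hlf was lost without WT replicate 2 or any 1 KO replicate (adjusted p of 0.0521 to 0.0637 in edgeR).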

How the data were processed

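Per the labels' protocols, MEF total RNA, isolated with Trizol and an RNeasy column, went into Illumina TruSeq libraries; strand use is not given. Per the submitters' processing notes, TopHat2 2.1.1, SAMtools 1.5, deepTools and Cufflinks 2.2.1 were named, with mm10; the annotation is not given in the sources used here.

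Deposited by the authors were estimated counts (expected fragments per locus) and FPKM values, per the file headers in the layout of Cufflinks tracking tables. The deposited estimated counts of a library were whole multiples of 1 step (0.789 to 1.26; tolerance 0.05) for 88.9% to 89.5% of values up to 1000, so each library had been scaled; totals before that were 51152348 to 70625708. Status columns that the authors deposited marked 9 named loci as HIDATA (too deep to quantify). These were left out, as were 1317 loci without a name, which held at most 3.13e-05% of a library.

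After rounding, the 3 KO and 3 WT libraries were compared by the two-sided quasi-likelihood test of edgeR 4.0.16 (R 4.3.3), with filterByExpr, TMM factors, robust dispersions and no term besides genotype. The Benjamini-Hochberg adjustment ran over 16787 loci, with a threshold of 0.05. CPM uses TMM factors; the SE of a log2 fold change is its size divided by the square root of F. The test was checked on simulated counts of 3 against 3 libraries, with changes set in loci above a minimum count. It recovered 20.9% of 1.5-fold, 64.2% of 2-fold and 93.9% of 4-fold changes, with 12 false calls among 16787 loci. A gene that did not pass may therefore still differ.

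The members, the lists and the naming rule were chosen with earlier results of these data known. The rule names the 10 genes, Fbxw7, the defining genes of each marker list, up to 4 genes of each list by smallest adjusted p, and for Cebpa, Cebpb, Pparg and Prdm16 the 3 loci of most similar pattern; other genes, such as Xist, Ucp1 and Cidea, were picked with their values in view. 1 gene that the rule names is not reported here. List genes in loci shared with another gene were neither tested nor summed. The markers of epithelial, neural and skeletal muscle cells were also summed. The labels gave no batch, so the main fit has no block. Deviations of same-numbered libraries correlated only weakly (r of 0.0571 to 0.206). The 19 alternatives were DESeq2 1.42.0 (Wald test and size factors), other scalings and filters, a replicate block, each library left out, replicate 3 left out or replicates 1 and 2 summed, counts divided by the step, and limma 3.58.1 on log2(FPKM + 1) or log2(FPKM + 0.1). Promoter windows came from RefSeq on GRCm38.p6. Figures used Python 3.11.15 with matplotlib 3.10.9.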

Additional observations from a re-analysis of the deposited data

How the results depend on the processing

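The direction of Cebpa, Cebpb, Cebpd, Cebpg, Pparg, Ppard, Prdm16, Fabp4 and Plin4 was the same in every alternative that gave them a value; Ppara, at 0.16, ranged from -0.16 (without WT replicate 3) to 0.44 (without KO replicate 3) and was -0.02 without KO replicate 2. Prdm16 was past the threshold in all 19 alternatives and Cebpa in all but 1. Leaving out 1 library gave 1169 to 3282 genes past the threshold (2705 with all), 4 to 8 of the 10 members (7 with all), 2 to 6 adipogenic factors, 4 to 9 inhibitors, 2 to 4 brown and beige fat genes, 2 to 8 adipocyte lipid genes, 3 to 7 oxidation genes, 7 to 10 inflammatory genes and 3 to 4 partner and turnover genes. With replicates 1 and 2 summed, 478 genes and 2 members passed, and 2 factors, 3 inhibitors, 1 brown fat gene, 0 lipid genes in edgeR (7 at an unadjusted p under 0.05, and 9 in DESeq2 with all 6 libraries), 2 oxidation, 6 inflammatory and 1 partner gene. Without replicate 3 of both genotypes, 6993 of 16926 genes passed, with 15 factors, 16 inhibitors, 6 brown fat, 9 oxidation and 8 partner genes. DESeq2's Wald test gave 3639 genes, 7 factors and 8 partner genes. In limma, log2(FPKM + 1) gave 1562 genes, 2 factors, 5 inhibitors and 4 lipid genes, log2(FPKM + 0.1) gave 1615, 2, 5 and 5, and log2(FPKM + 1) without a filter gave 1182 genes, 4 members, 2 factors, 3 inhibitors, 1 lipid gene and 2 partner genes. The cause of these shifts was not tested. With library size as the only scaling, the median of all loci went from 0.00749 to 0.105 (log2) and the share of calls that were higher from 49.8% to 65.7%, and it left the members at 7. The replicate block gave 2356 genes and 6 members, with Fabp4 lost (adjusted p = 0.0654 in edgeR); deviations of same-numbered libraries correlated at 0.0571, 0.206 and 0.118, and WT replicate 1 correlated about as well with KO replicate 3 (0.057). Ppara, Plin4 and Prdm16 had at most 34 fragments in each KO library, which limits their precision.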

Other observations

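Marker lists of cell types that the results above did not touch were at the edge of detection or differed with the genotype. The 7 skeletal muscle markers, genes of the lineage that PRDM16 holds down in brown fat precursors, summed to at most 0.0654 CPM in any WT library and 0.0673 CPM in any KO library, with Myod1 and Myf5 at 0 fragments in all 6. The 6 epithelial markers summed to 0.229 to 0.454 CPM in WT and 0.101 to 0.154 CPM in KO. Of the neural markers Map2, a microtubule gene, went from 21.8 ± 2.47 to 10.2 ± 4.91 CPM and Stmn2 from 1.42 ± 0.821 to 0.125 ± 0.0267 CPM (SD, n = 3 each; edgeR adjusted p = 0.0487 and 0.00792), while Sox2 was at 0 fragments in all libraries. Among fibroblast markers the proteoglycan genes Lum and Dcn rose, from 13.8 ± 8.89 to 233 ± 122 CPM and from 631 ± 307 to 1850 ± 186 CPM, and Vim fell from 3830 ± 646 to 2150 ± 148 CPM (edgeR adjusted p = 0.00612, 0.0252 and 0.00972). Map2 was lost without any 1 library other than KO replicate 3 (adjusted p of 0.0945 to 0.165 in edgeR), Dcn without WT replicate 2 or any 1 KO replicate (0.0702 to 0.0792) and Vim without KO replicate 1 (0.058). These genes were chosen after their values were seen.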
